A study of Mus musculus with 6 samples.

Results

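The DEAD-box and DEAH-box helicases were examined in ribosome footprints of mouse oocytes. Members were taken by name, as all genes called Ddx or Dhx followed by a digit with a mean above 0 over the libraries, which gave 52 of the 22416 genes in the table (37 Ddx and 15 Dhx genes). A further gene of that name, Dhx58, which encodes a sensor of viral RNA, was listed at 0 in every library. Ribo-lite, a form of ribosome profiling scaled down to few cells, sequences the short mRNA pieces that ribosomes protect from nuclease, and each library was made from 500 oocytes. The 6 libraries formed 3 groups of 2: fully grown oocytes with an intact nucleus, the germinal vesicle (WT_FGO), control oocytes at metaphase II, where meiosis pauses until fertilization (WT_MII), and treated metaphase II oocytes (Treat_MII). All were of wild-type genotype. By the methods of the study the oocytes came from 4-week-old females of C57BL/6 background. They were collected 44 h after 5 IU of PMSG, a gonadotropin that stimulates follicle growth. Those of the metaphase II groups were matured in culture. The labels give the treatment only as Treat. The study describes it as BYBX, a ligand that stabilizes G-quadruplexes formed by RNA (rG4s, in which G-rich stretches fold up), and describes the solvent DMSO as the control for oocytes of both stages. It also reports abnormal spindles in BYBX-treated oocytes that reached metaphase II. The labels name no transgene or deletion.

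Helicases of the DEAD-box and DEAH-box families use ATP to open short RNA duplexes, to strip proteins from RNA or to clamp onto it. They are named after amino acid letters in a conserved ATP-binding motif, and they act at every step of RNA life, from splicing and ribosome assembly in the nucleus to export, storage, translation and decay. Growing oocytes store mRNA for later use and stop transcription when fully grown, so proteins made during maturation come from mRNA that is already there. Germ line members such as Ddx4 and storage proteins such as Ddx6 are known for work on this store, and several members, above all Dhx36, are known to bind or unfold G-quadruplexes.

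The unit was FPKM, footprints per kilobase of coding sequence and per unit of library size, so a value is a density within its own library, and levels of different genes can be set side by side. Whole reads were recovered from the FPKM for all 52 members. Total reads were 94309 and 107251 in WT_FGO, 164972 and 230907 in WT_MII, and 331304 and 275604 in Treat_MII. The members were thinly covered, with a median of 41.5 reads over the 6 libraries together and a range from 2 (Ddx50) to 5132 (Ddx3x), and 19 members had at least 60. A group in which each library had at most 3 reads for a gene was regarded as at the floor. This applied to 16 members in WT_FGO, 16 in WT_MII and 9 in Treat_MII, and 5 members were at the floor in all groups. Replicates differed by more than counting error in every group, over the members with enough reads in that group. The chi-square per degree of freedom was 2.35 in WT_FGO (24 genes), 3.44 in WT_MII (26 genes) and 1.93 in Treat_MII (35 genes). The labels do not say whether replicates came from separate collections, so the p-values measure only the spread between these libraries. Of 12 oocyte markers, 12 were above 0 in every library except WT_FGO_2, with 11. Their summed level was 39930 to 58289 FPKM in WT_FGO, 20356 to 24210 in WT_MII and 31144 to 32242 in Treat_MII. In WT_MII against WT_FGO 8 of them were called lower (3.09% of all tested genes) and 2 higher (3.67%), with a median log2 difference of -2.55. In Treat_MII against WT_MII 0 were called, 11 differences were positive and 1 negative, and the median was 0.98. The summed level of 14 granulosa and cumulus cell markers was 2211 FPKM in WT_FGO_2, with 11 of the 14 above 0, against 100 to 233 FPKM in the other libraries, where 6 to 9 were above 0. In WT_FGO_2 the markers at 0 were Has2, Ptx3 and Tnfaip6, all of the expanding cumulus, and in maturation 1 of 11 tested markers of the list was called, Gja1, which was lower. The part of this difference in the results below was not tested, and the main values are given with and without WT_FGO_2.

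The densest footprints of the family lay on Ddx3x in every library. Ddx3x (chrX:13280970-13294052, GRCm38) encodes an X-linked helicase that helps ribosomes start on mRNAs with structured leaders. It had 422 and 366 FPKM in WT_FGO, 1767 and 2508 in WT_MII, and 2689 and 2698 in Treat_MII. Both metaphase II groups thus lay far above both fully grown libraries. The next genes by mean level over all libraries were Dhx36, Ddx5, Ddx19a, Ddx39 and Ddx4, at 195, 145, 139, 127 and 110 FPKM. Only Ddx3x and Dhx36 exceeded a mean of 100 FPKM in all 3 groups. Below these 6 genes the level dropped to 57.6 FPKM for Ddx49 and 52.5 FPKM for Dhx15.

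**Figure D1:**
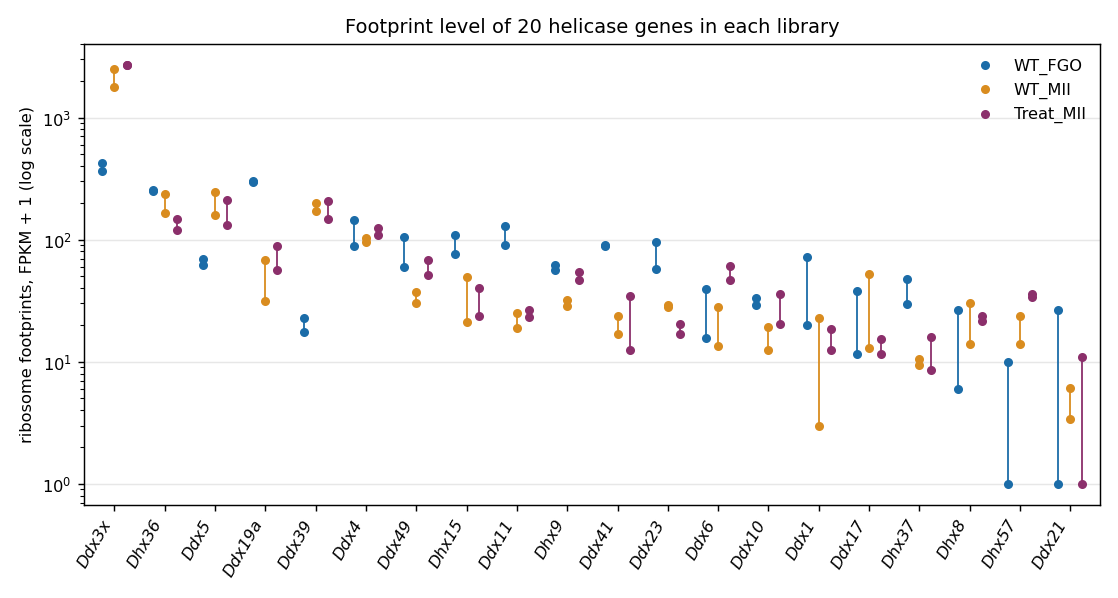
Footprint level as FPKM + 1 on a log axis for the 20 helicase genes described in the text, ordered by their mean over all libraries. Each point is 1 library, and a line joins the 2 libraries of a group. Ddx3x stands above all other genes, and lines are long for genes of few reads such as Ddx1 and Ddx21.

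Because the study concerns RNA G-quadruplexes, the members' own transcripts were searched for the motif: 4 runs of at least 3 G separated by 1 to 7 bases, on the sense strand of the longest coding transcript. It occurred in 6 of 52 members, or 11.5%, against 21.1% of the 14825 tested genes with a transcript. No member held it in the 5′-UTR (0 of 52, against 7.59% of all genes). The coding sequence held it in 2 members (3.85%, against 4.43%), and the 3′-UTR in 4 (7.69%, against 11.6%). The sequences are shown because they are what a G-quadruplex helicase or ligand could meet on a helicase mRNA, and a motif is not a measured rG4. They are printed 5′ to 3′ in the sense of the gene with the G runs in capitals. Ddx6, a repressor of stored mRNAs, had the most, with 4 separate motifs in its 3′-UTR, at chr9:44638698-44638714, chr9:44639535-44639552, chr9:44639731-44639747 and chr9:44640284-44640301 (plus strand):
Ddx6, nearest the coding sequence: GGGaGGGtGGGagtGGG
Ddx6, next: GGGGtGGGGtGGGGtGGG
Ddx6, farther on: GGGGtGGGaGGGGaGGG
Ddx6, last: GGGcaGGGcaaGGGaGGG
The 3′-UTR of Ddx39, whose protein belongs to the mRNA export machinery, held 2 motifs within a short stretch, at chr8:83726808-83726825 and chr8:83726830-83726859 (plus strand):
Ddx39 first: GGGagtGGGtGGGtaGGG
Ddx39 second: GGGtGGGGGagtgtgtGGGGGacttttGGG
Ddx17, a splicing cofactor, had a motif at chr15:79529661-79529676 (minus strand), and Ddx25, a germ cell helicase, had a motif at chr9:35538966-35538985 (minus strand), both in the 3′-UTR:
Ddx17: GGGaGGGtGGGtaGGG
Ddx25: GGGagtGGGttGGGagtGGG
The motifs in coding sequence lay in Dhx29 (chr13:112960191-112960213, plus strand), a helicase of translation initiation, and in Dhx8 (chr11:101738195-101738215, plus strand), which releases spliced mRNA:
Dhx29: GGGGagagccGGGaGGGtccGGG
Dhx8: GGGaccGGGaccGGGaccGGG
With runs of at least 2 G the motif occurred in 100% of the members and 96.3% of all genes.

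The first comparison asked which helicases changed in footprint level between fully grown and metaphase II oocytes. Ddx3x and Ddx39 rose, and Ddx19a and Ddx11 fell (limma on log2(FPKM + 1), Benjamini-Hochberg adjusted p under 0.05 over 15127 genes). Thus 2 of 51 tested members were called higher, where 3.67% of all tested genes were, and 2 of 51 were called lower, where 3.09% of all genes were. Each is 3.92% of the members, near the share of all genes. Ddx50 was below the minimum mean of 1 FPKM and was not tested. At an unadjusted p under 0.05 there were 13 of 51 members and 22.8% of all genes. The median change of the 51 members was -0.37 on the log2 scale, and that of all tested genes was -0.44. Centring each library on its median moved the median of all genes to -0.01 and that of the members to 0.07, so whether the family as a whole lies higher or lower depends on the scaling. Leaving out the 6 members at the floor in both groups gave a median of -0.36 over the other 45. Without WT_FGO_2, Ddx3x, Ddx39 and Dhx57 were called higher (5.88%, with 5.96% of all genes) and only Ddx11 lower (1.96%, with 5.61%), and the median of the members was -0.90, with 0 for all genes.

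**Figure D2:**
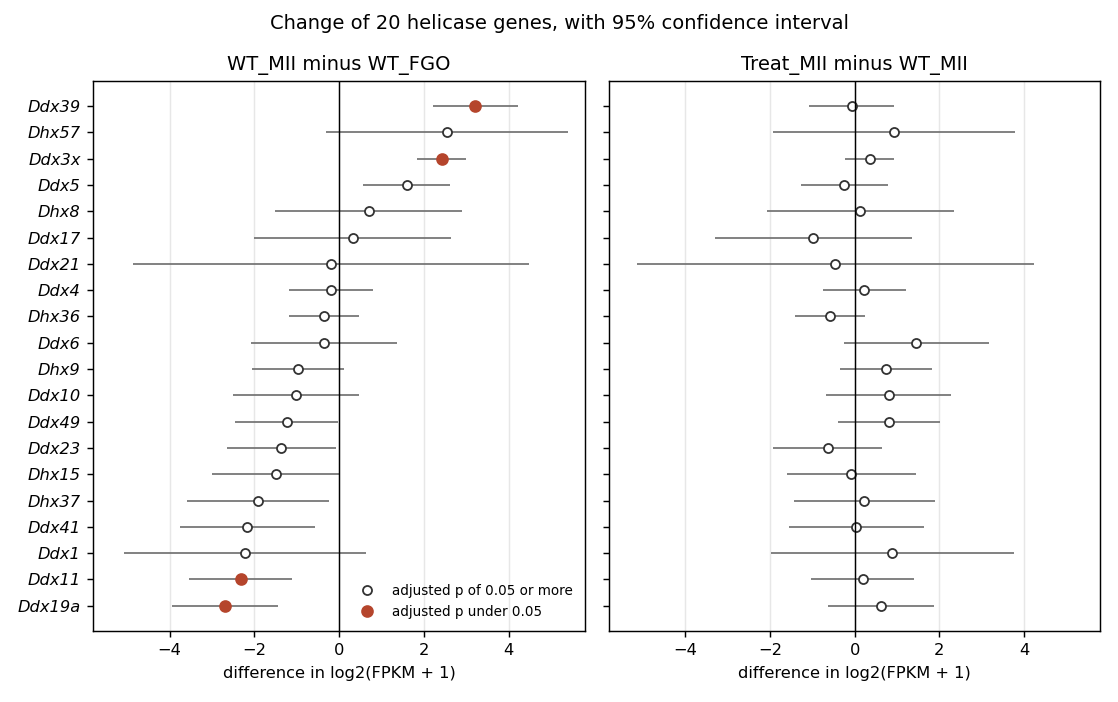
Difference in log2(FPKM + 1) with its 95% confidence interval from limma for 20 helicase genes, on the left for WT_MII minus WT_FGO and on the right for Treat_MII minus WT_MII (n = 2 libraries per group). Filled points have an adjusted p under 0.05. The 4 filled points are Ddx39, Ddx3x, Ddx11 and Ddx19a, all on the left, and intervals on the right cross 0 for every gene shown.

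Ddx3x had 79 and 78 reads in WT_FGO and 579 and 1150 in WT_MII. The mean level rose 5.43-fold, from 394 ± 39.3 FPKM to 2137 ± 524 FPKM (SD, n = 2 each). The log2 change was 2.42 with a standard error of 0.24, and limma gave an adjusted p of 0.00498. Reads scaled to library size gave a ratio of 5.61 with a counting interval of 4.76 to 6.65, which covers counting error only. The groups did not overlap, and the direction held under each alternative tried. The call was lost when the spread came from the compared groups alone (limma adjusted p 0.158), where 0 of 15127 genes were called. With no mean-variance trend it was also lost (limma adjusted p 0.112), and 1.24% of all genes were called higher. It was lost too when the spread was estimated without either treated library, which leaves a single library in that group. Over all alternatives the adjusted p ranged from 9.68e-21 to 0.158. Of the 28-base words of its coding sequence, 11.2% also occur in transcripts of other genes, mainly the predicted gene Gm19028, so a few of its reads may have been placed elsewhere.

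Ddx39 (chr8:83715177-83726892) had the largest rise of the family. It encodes a close relative of Ddx39b, and both serve splicing and mRNA export. Its levels were 16.4 and 21.6 FPKM in WT_FGO, from 2 and 3 reads, and 197 and 171 FPKM in WT_MII, from 42 and 51 reads. Treated libraries had 147 and 208 FPKM. Fully grown oocytes thus had hardly any footprints on this gene, and all 4 metaphase II libraries had many. The log2 change in maturation was 3.22 (SE 0.41, limma adjusted p 0.0111), and the ratio of scaled reads was 9.47 with a counting interval of 3.92 to 29.8. Without WT_MII_1 the adjusted p was 0.0545, and without either treated library it was 0.104, and over all alternatives it ranged from 0.00190 to 0.116. Ddx39b (chr17:35241746-35253707) had 49.5 and 36.3 FPKM in WT_FGO against 18.9 and 16.9 in WT_MII, a log2 difference of -1.20 (adjusted p 0.266). The paralogs thus had opposite signs, with Ddx39b not passing the test, and the difference between them was not tested.

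The gene that fell most among the called members was Ddx19a (chr8:110974996-110997800), which encodes a helicase at the nuclear pore that remodels mRNA on its way out of the nucleus. It was second only to Ddx3x in both fully grown libraries, with 296 and 299 FPKM. Control metaphase II libraries had 67.6 and 30.2 FPKM, and treated libraries had 88.4 and 55.7. No metaphase II library reached a level near those of the fully grown oocytes. The log2 change was -2.69 (SE 0.51, limma adjusted p 0.0373), and the ratio of scaled reads was 0.15 with a counting interval of 0.10 to 0.24. The adjusted p lay between 0.0530 and 0.149 without each of the 6 libraries in turn, was 0.0522 after median centring, and ranged from 9.28e-06 to 0.182 over all alternatives. Its value is uncertain because 57.6% of its coding words occur in the neighbouring paralog Ddx19b, which had 27.6 and 6.06 FPKM in WT_FGO and 11.8 and 8.44 in WT_MII.

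Ddx11 (chr17:66123520-66152174), a DNA helicase of sister chromatid cohesion that carries a DEAD-box name, had 129 and 89.2 FPKM in WT_FGO. It had 17.8 and 23.9 FPKM in WT_MII, and 22.2 and 25.4 in Treat_MII. The groups of different stage did not overlap. The log2 change in maturation was -2.32 (SE 0.50), with a limma adjusted p of 0.0498 just under the threshold. It passed without WT_FGO_2 (0.0365) and missed the threshold without any other single library (0.0531 to 0.118). Over all alternatives it ranged from 0.00104 to 0.158.

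Ddx5 and Dhx57 also lay higher in metaphase II oocytes without passing the test. Ddx5 (chr11:106780355-106789185), a cofactor of splicing, transcription and microRNA processing, had 68.9 and 60.6 FPKM in WT_FGO and 243 and 159 FPKM in WT_MII. Its log2 difference was 1.59 (SE 0.42, adjusted p 0.0840), and on median centring it passed, with a difference of 2.03 and an adjusted p of 0.0448. The coding sequence of Ddx5 shares 64.1% of its words with other genes, mostly the predicted gene Gm12183, so its level is uncertain. Dhx57 (chr17:80238309-80290476) had 0 and 8.96 FPKM in WT_FGO, from 0 and 4 reads, against 13.1 and 22.9 in WT_MII and 34.8 and 33.1 in Treat_MII. Both groups of metaphase II oocytes lay above both fully grown libraries. The log2 difference in maturation was 2.54 (SE 1.17, adjusted p 0.276), and leaving out a fully grown library gave 4.20 without WT_FGO_2 (0.0393) and 0.88 without WT_FGO_1 (0.350).

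Without any model, the lower of the WT_MII libraries exceeded the higher of the WT_FGO libraries for 8 of 51 members (15.7%, with 15.3% of all genes) and the reverse held for 20 of 51 (39.2%, with 25.8% of all genes). Of the 20 described genes, those on the lower side that did not pass the test were Ddx41, Dhx37, Dhx15, Ddx23, Ddx49, Ddx10, Dhx9 and Dhx36. Ddx41 (chr13:55530410-55536658), a spliceosome helicase also described as a DNA sensor, had 89.3 and 88.4 FPKM in WT_FGO and 15.96 and 22.8 in WT_MII, a log2 difference of -2.16 (adjusted p 0.114), and 33.4 and 11.5 in Treat_MII. Dhx37 (chr5:125413858-125434121), a helicase of small ribosomal subunit assembly, had 47.0 and 28.4 FPKM against 8.40 and 9.61, and 7.53 and 15.1 in Treat_MII. Dhx15 (chr5:52150203-52190514), which takes spliceosomes apart, had 75.3 and 109 FPKM against 20.3 and 48.8, and Ddx23 (chr15:98645134-98662894), a helicase of spliceosome activation, had 56.1 and 94.9 FPKM against 27.1 and 28.2. Their log2 differences were -1.91, -1.49 and -1.37, with adjusted p of 0.166, 0.225 and 0.193. The groups were separate for each of these genes, but their confidence intervals were wide.

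The second comparison asked whether the ligand changed footprints on the helicases of metaphase II oocytes. No member was called in either direction, 0 of 51 higher and 0 of 51 lower, and the background was the same: 0% of the 15127 genes were called higher and 0% lower. The smallest adjusted p of a member was 0.931. At an unadjusted p under 0.05 there were 0 of 51 members and 882 of 15127 genes (5.83%) by limma. In voom on the recovered reads 0 of 51 members were called, with 0.447% of 14545 genes higher and 0.688% lower. The members' median difference was 0.26 on the log2 scale and that of all genes was 0. Of the 51 members, 34 had a positive difference and 17 a negative difference, and by group means 31 were higher and 20 lower, since for 5 members with few reads the log2 difference and the means had opposite signs. Both treated libraries lay above both control libraries for 15 of 51 members (29.4%, with 16.2% of all genes) and below both for 7 of 51 (13.7%, with 15.6% of all genes). Treated libraries were deeper than the controls, at 303454 ± 39386 against 197940 ± 46623 reads (SD, n = 2 each), and the part of depth in these counts was not tested. Among the 19 members with at least 60 reads, 8 lay above (42.1%) and 2 below (10.5%), with 25% and 21.1% of the 2706 genes of that depth. The intervals were wide: for Ddx4, at 110 FPKM on average, a log2 difference between -0.75 and 1.21 was compatible with the data, so moderate changes were not detectable with these replicates.

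Dhx36 (chr3:62468013-62507004), the best studied rG4 helicase, had 251 and 255 FPKM in WT_FGO, 166 and 237 in WT_MII, and 146 and 118 in Treat_MII. The 3 groups followed each other downward with no overlap. The difference of treated from control metaphase II oocytes was -0.59 on the log2 scale (95% confidence interval -1.41 to 0.24, limma adjusted p 0.931). Scaled reads gave a ratio of 0.64 with a counting interval of 0.54 to 0.77, so the gap exceeded counting error, but it did not pass the test across replicates. Between fully grown and control metaphase II oocytes the log2 difference was -0.35 (adjusted p 0.547), and it turned to 0.08 on median centring. Treated against fully grown oocytes gave -0.94 (SE 0.34, unadjusted p 0.0317, adjusted p 0.202), with -0.50 after centring.

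Dhx9 and Ddx6 lay higher in both treated libraries than in both controls. Dhx9 (chr1:153455758-153487660), a nuclear helicase that also unwinds G-quadruplexes, had 60.7 and 55.6 FPKM in WT_FGO, 27.5 and 31.0 in WT_MII, and 53.3 and 45.9 in Treat_MII. The control metaphase II libraries were the low ones, and the treated libraries lay between them and the fully grown libraries. The log2 difference was -0.97 (adjusted p 0.276) in maturation and 0.74 (adjusted p 0.931) with treatment. Ddx6 (chr9:44604892-44640731), which carries the 4 motifs printed above and represses stored mRNAs, had 14.6 and 38.6 FPKM in WT_FGO, 12.5 and 26.9 in WT_MII, and 45.8 and 60.1 in Treat_MII. The treated libraries were the highest, at 22 and 24 reads against 3 and 9 reads in the controls. Its log2 difference with treatment was 1.46 (SE 0.70, adjusted p 0.931), and the ratio of scaled reads was 2.5 with a counting interval of 1.30 to 5.19. In maturation the difference was -0.36 (adjusted p 0.814), which turned to 0.08 on median centring and to 0.19 on quantile normalization. In Ddx6, 33.8% of coding words occur elsewhere, all in the predicted gene Gm13410.

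Ddx4 (chr13:112598333-112652475), the Vasa helicase of the germ line, had 87.4 and 145 FPKM in WT_FGO, 94.4 and 103 in WT_MII, and 108 and 125 in Treat_MII. Both treated libraries lay above both controls, and the fully grown libraries enclosed all others. Log2 differences were -0.19 (SE 0.40, adjusted p 0.833) in maturation, which turned to 0.25 on median centring, and 0.23 (SE 0.40, adjusted p 1) with treatment. Among the other described genes, Ddx49 (chr8:70292866-70302489), a helicase of ribosome assembly, had 58.9 and 104 FPKM in WT_FGO, 29.5 and 36.1 in WT_MII, and 67.1 and 50.4 in Treat_MII. Ddx10 (chr9:53098635-53248053), of the same pathway, had 32.3 and 28.4, 11.5 and 18.1, and 19.5 and 34.6 FPKM in the same order. Both were lowest in the controls at metaphase II, with log2 differences of 0.82 and 0.80 with treatment (adjusted p 0.931 each).

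Negative differences with treatment, among described members with at least 60 reads, were those of Dhx36, Ddx23, Ddx5, Dhx15 and Ddx39. Ddx23 had 15.97 and 19.2 FPKM in Treat_MII, below both controls, a log2 difference of -0.63 (adjusted p 0.931). Ddx5, at 131 and 210 FPKM, Dhx15, at 39.1 and 22.7 FPKM, and Ddx39 overlapped with the controls, and their log2 differences were -0.25, -0.08 and -0.07. Dhx8 (chr11:101732919-101767358) had 25.6 and 5.00 FPKM in WT_FGO, 13.0 and 29.0 in WT_MII, and 22.6 and 20.4 in Treat_MII. Its groups overlapped throughout.

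The third comparison set treated metaphase II oocytes against fully grown oocytes, and it shares libraries with the other comparisons. Ddx3x (2.77, SE 0.24, limma adjusted p 0.00355) and Ddx39 (3.15, SE 0.41, adjusted p 0.0148) were again called higher, 2 of 51 members beside 2.86% of all genes, and 0 of 51 were called lower beside 1%. At an unadjusted p under 0.05 there were 12 of 51 members and 19.9% of all genes by limma. Called lower by voom on the recovered reads were 9 of 51 members (17.6%) and 13.6% of the 14545 genes it tested. Both treated libraries lay above both fully grown libraries for 11 of 51 members (21.6%, with 16.6% of all genes) and below both for 20 of 51 (39.2%, with 28.9%). Without WT_FGO_2 the called members were Ddx3x, Ddx39 and Dhx57 higher (with 6.23% of all genes) and Ddx11 lower (with 4.38%). Both calls were lost without either treated library (adjusted p 0.0528 to 0.113), and that of Ddx39 also without either control metaphase II library (adjusted p 0.0664 and 0.0691).

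Summed over the family, the share of a library's reads on helicase genes reached 0.507 and 0.531% in WT_FGO, 0.637 and 0.794% in WT_MII, and 0.824 and 0.845% in Treat_MII. The share on Ddx3x rose by more than that of the family, since the 51 other members together had a smaller share at metaphase II. Ddx3x took 16.5% of member reads in WT_FGO_1 (Wilson 95% interval 13.5 to 20.1) and 13.7% in WT_FGO_2 (11.1 to 16.7). In WT_MII its part was 55.1% (52.1 to 58.1) and 62.7% (60.5 to 64.9), and in Treat_MII 64.8% (63.0 to 66.5) and 63.4% (61.4 to 65.4). The 51 other members together had 0.423 and 0.459% of the library in WT_FGO, 0.286 and 0.296% in WT_MII, and 0.290 and 0.309% in Treat_MII. As a share of the library the family without Ddx3x was thus lower in all 4 metaphase II libraries than in both fully grown libraries, whereas the family with Ddx3x was higher. The first of these depends on the scaling. After median centring the summed level without Ddx3x was 1618 and 1518 FPKM in WT_FGO, 1416 and 1502 in WT_MII, and 1456 and 1570 in Treat_MII, so that the treated and fully grown groups overlapped. With Ddx3x the centred sum stayed higher at metaphase II, at 3292 to 4555 FPKM against 1988 and 1797. These sums were not tested, and an exact two-sided permutation test of 2 libraries against 2 can give no p below 0.333.

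**Figure D3:**
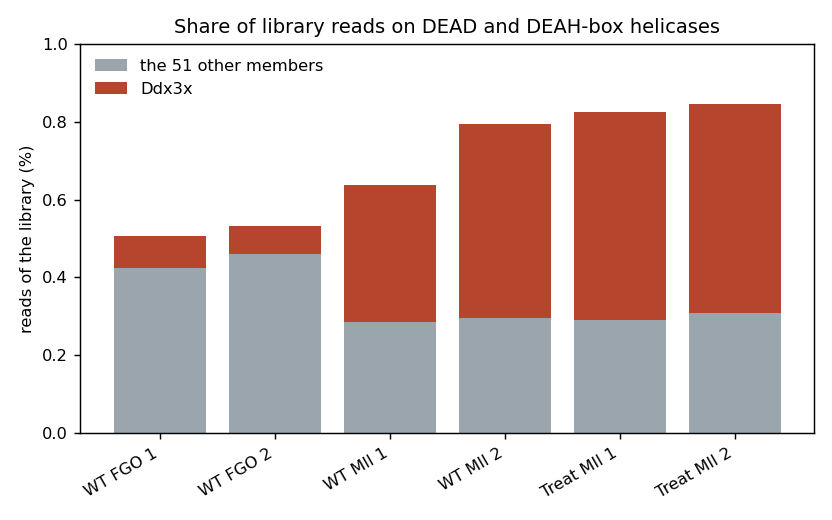
Percent of all reads of each library that fell on Ddx3x and on the 51 other members, stacked, for the 6 libraries. The lower part of the bars shrinks from 0.423 and 0.459% in WT_FGO to 0.286 to 0.309% at metaphase II, while the upper part grows.

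The members were also grouped by role, and each group is described by its counts and median beside the median of all genes (-0.44 in maturation and 0 with treatment). Of all tested genes, 3.67% were called higher and 3.09% lower in maturation, and 0% either way with treatment. The 7 members of mRNA storage, germ line and translation were Ddx3x, Ddx3y, Ddx4, Ddx6, Ddx25, Ddx43 and Dhx29. In maturation 1 of 7 was called, Ddx3x, and the median was -0.36. With treatment 0 were called, and the median difference on the log2(FPKM + 1) scale was 0.59, with a range of 0.23 to 1.56. That median is the value of Ddx3y, a gene with few reads. The sign of Ddx25, a germ cell helicase, depends on the scale. It had 0 and 17.9 FPKM in WT_MII, from 0 and 6 reads, and 4.16 and 5.00 FPKM in Treat_MII, so its log2 difference was 0.36 while its group mean was lower in Treat_MII, at 0.51 of that in WT_MII. Dhx29, which helps ribosomes scan structured leaders, had the largest difference, with 4.44 and 3.17 FPKM in WT_MII and 14.7 and 11.5 in Treat_MII (log2 difference 1.56, limma adjusted p 0.931). Its WT_MII values came from 3 and 3 reads, at the floor, and those in Treat_MII from 20 and 13 reads. Ddx3y, the Y-linked copy of Ddx3x, was close to the floor, with 0, 5, 2, 3, 6 and 6 reads from WT_FGO_1 to Treat_MII_2. The oocytes came from females, so the source of reads placed on a Y-linked gene is unclear and was not tested. Ddx43 was at the floor in every group.

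The 7 members known to bind or unwind G-quadruplexes were Dhx36, Dhx9, Ddx1, Ddx3x, Ddx5, Ddx17 and Ddx21. Their median was -0.19 in maturation, the value of Ddx21, with Ddx3x called. With treatment the median was -0.25, with 0 called, 3 positive and 4 negative. Of the negative ones, the sign of Ddx21 depends on the scale. Its log2 difference with treatment was -0.45, while its group mean in Treat_MII was 1.33 of that in WT_MII. Ddx17 (chr15:79527736-79546741), the paralog of Ddx5, had 10.5 and 37.1 FPKM in WT_FGO, 12.1 and 51.7 in WT_MII, and 10.5 and 14.4 in Treat_MII. Ddx1 (chr12:13216973-13249213), of the tRNA ligase complex, had 19.1 and 71.4, 21.8 and 1.95, and 17.7 and 11.4 FPKM in that order. For Ddx21 (chr10:62580251-62602281), a nucleolar helicase, the values were 0 and 25.6, 2.37 and 5.09, and 0 and 9.95 FPKM. In all 3 genes the libraries of WT_FGO and WT_MII overlapped, and log2 differences in maturation were 0.32, -2.22 and -0.19, of which that of Ddx21 turned to 0.25 on median centring. Leaving out each library, the difference of Ddx1 in maturation ranged from -3.69 to -0.74.

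**Figure D4:**
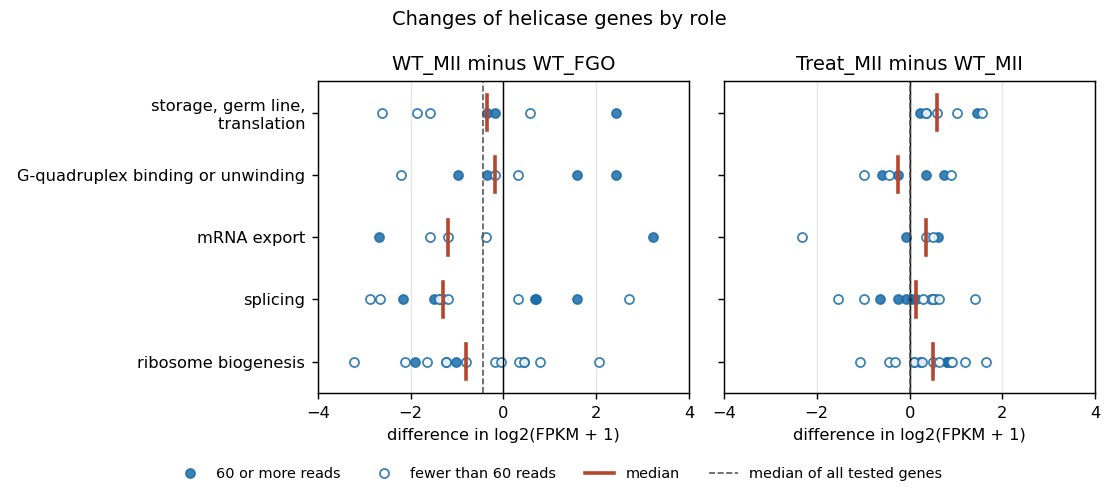
Log2 differences of the tested members by role for WT_MII minus WT_FGO (left) and Treat_MII minus WT_MII (right), where each point is a gene, filled with 60 or more reads and open with fewer. Red bars are medians of the role, and the dashed line is the median of all tested genes. All points of the storage, germ line and translation row lie right of 0 on this scale in the right panel, and those of the splicing row spread from -2.87 to 2.71 in the left panel.

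No helicase of the splicing list was called in maturation. Of 13, 8 had a negative and 5 a positive difference, and the median was -1.31. That median is the value of Ddx20, which had 2 and 2 reads in WT_FGO and 0 and 7 in WT_MII. Its groups overlapped, and its group mean in WT_MII was 0.76 of that in WT_FGO. Dhx16 and Dhx38, which drive successive steps of spliceosome remodelling, had 20.3 and 26.8 FPKM and 11.5 and 12.7 FPKM in WT_FGO. In WT_MII they had 1.94 and 2.77 FPKM (1 and 2 reads) and 3.29 and 0 FPKM (2 and 0 reads), both at the floor. Their log2 differences were -2.87 (limma adjusted p 0.109) and -2.66 (0.229). With treatment the median of the splicing list was 0.14, with 0 called. The 5 export members present had a median of -1.20 in maturation, with Ddx39 called higher and Ddx19a called lower, and 0.36 with treatment. The latter is the value of Ddx25, whose sign with treatment depends on the scale.

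Of 16 ribosome biogenesis members 15 were tested, with 0 called in any comparison. In maturation 10 had a negative and 5 a positive difference (median -0.80), and with treatment 12 had a positive and 3 a negative difference (median 0.51). With treatment Ddx21 (negative) and Ddx54 (positive) had the opposite sign by group means. Ddx27, a nucleolar helicase, was the most extreme on both sides. It had 17.9 and 74.8 FPKM in WT_FGO, 2.56 and 3.66 in WT_MII, and 8.92 and 15.3 in Treat_MII. Its WT_MII values came from 1 and 2 reads, at the floor. Its log2 difference was -3.22 in maturation (adjusted p 0.0965) and 1.64 with treatment (adjusted p 0.931). Ddx18 belongs to this list but 85.4% of its coding words occur in other genes, so its level of 0 to 21.4 FPKM is uncertain. Neither mitochondrial member, Ddx28 or Dhx30, was called. Ddx28 had 65.5 and 0 FPKM in WT_FGO, from 10 and 0 reads, and 18.7 and 8.02 FPKM in WT_MII. Its log2 difference in maturation was 0.71, whereas its group mean was lower in WT_MII, at 0.41 of that in WT_FGO, so its direction is not settled. Dhx30 had 10.6 and 9.36 FPKM in WT_FGO and 12.2 and 10.9 FPKM in WT_MII, a log2 difference of 0.19. The 3 tested innate immune members, Ddx41, Ddx58 and Ddx60, had a median of -0.76 in maturation and -0.65 with treatment, with 0 called. Both medians are values of Ddx58, which was at the floor in WT_FGO and WT_MII.

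The 32 members outside the 20 described in full had mean levels from 0.98 FPKM (Ddx50) to 40.0 FPKM (Ddx31). None of the 31 tested was called, with smallest adjusted p of 0.0965 in maturation and 0.931 with treatment. Their log2 differences ran from -3.22 (Ddx27) to 2.71 (Dhx35) in maturation, with 13 positive and 18 negative, and from -2.31 (Ddx19b) to 1.64 (Ddx27) with treatment, with 21 positive and 10 negative. Dhx35 had 0 and 4.42 FPKM in WT_FGO and 31.6 and 6.16 FPKM in WT_MII, so replicates of a group lay far apart. Its WT_FGO values came from 0 and 1 reads, at the floor, and Ddx19b was at the floor in both metaphase II groups. Outside the roles above, Dhx34, of nonsense-mediated decay, had 19.4 and 2.52 FPKM in WT_MII. In Treat_MII it had 0 and 2.11 FPKM, from 0 and 2 reads, at the floor.

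Helicases outside the Ddx and Dhx names were counted for comparison, beside the 3.67% of all tested genes called higher and 3.09% called lower in maturation. Of 20 other RNA helicases tested, 1 was called in maturation, Dicer1, the nuclease that makes small RNAs, which rose from 64.9 and 53.8 FPKM to 306 and 270 FPKM (log2 change 2.26, SE 0.32, limma adjusted p 0.0153). The list had a median of -0.89 in maturation and 0.22 with treatment. Upf1, of nonsense-mediated decay, had 25.2 and 77.4 FPKM in WT_FGO and 235 and 266 FPKM in WT_MII (2.47, adjusted p 0.0563). The translation initiation helicases Eif4a1, Eif4a2 and Eif4a3 had differences of -0.45, 0.72 and -1.46 in maturation, none called. Of 6 tested DNA helicases that unwind G-quadruplexes, Wrn was called higher, from 0 and 2 reads in WT_FGO to 43 and 52 in WT_MII (adjusted p 0.0395), and the median was 0.68.

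Genes that work with the helicases were counted in the same way, beside the same shares of all genes (3.67% higher and 3.09% lower in maturation). Of 9 partners of DDX6, Lsm14a, a scaffold of repressed mRNA particles, rose in maturation from 28.7 and 75.8 FPKM to 279 and 337 FPKM (log2 change 2.69, adjusted p 0.0376). Eif4enif1, which ties the cap-binding protein to such particles, fell from 151 and 294 FPKM to 12.3 and 17.6 FPKM (-3.75, adjusted p 0.0153). Zar1, an organizer of mRNA storage in oocytes, fell from 1146 and 1093 FPKM to 218 and 264 FPKM (-2.22, adjusted p 0.00705). With treatment 0 of the 9 were called. Of 17 tested G-patch proteins, the cofactors that switch on DEAH-box helicases, Pinx1 was called higher in maturation, with 0 reads in both WT_FGO libraries and 8 and 15 in WT_MII (adjusted p 0.0165). The 6 cofactors and inhibitors of eIF4A had a median of -0.74 in maturation, with 0 called and 2 positive and 4 negative differences. Leaving out each library in turn kept the direction of these 6 calls outside the family. Dicer1 and Zar1 passed in 4 of the 6 such fits (adjusted p up to 0.111 for both), Wrn, Lsm14a and Eif4enif1 passed in 2 (up to 0.200, 0.193 and 0.118), and Pinx1 in 0 (0.0605 to 0.115).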

How the data were processed

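Ribo-lite footprints from 6 mouse oocyte libraries were used. The authors deposited FPKM values per gene and library in a single table. The submitters' processing notes name cutadapt 1.14, Bowtie2 2.2.2, STAR 2.5.3a and the build mm10, and the counting program, annotation and handling of duplicates are not given in the sources used here. Because FPKM are relative to library totals, changes in total translation per oocyte are not visible, and low genes carry large counting error. After 26 repeated gene names were left out, 22416 genes remained. FPKM multiplied by the union coding length in GENCODE mouse release 21 (GRCm38) fell on whole reads (tolerance 0.02) in all libraries for 97.8% of genes above 0 with a coding length. Intervals on reads (95%, exact or Wilson) and the floor of 3 reads cover counting error only.

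Tested were the 15127 genes whose mean reached 1 FPKM, with limma 3.58.1 in R 4.3.3 (lmFit, eBayes with trend) on log2(FPKM + 1), a scale that understates changes of low genes, in 1 fit of the 3 groups. P-values were adjusted by Benjamini-Hochberg over all tested genes and called under 0.05. The scripts were tested on simulated data. Alternatives were a pseudocount of 0.1, other filters (none, 5 FPKM, 60 reads), median centring, quantile normalization, a replicate block, only the compared groups, no trend, voom on recovered reads, and leaving out each library.

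Members and lists were chosen with earlier results of these data known. Described in full were Dhx36, Ddx4, Ddx6 and Dhx9, the G-quadruplex list, the 10 highest mean levels, every called member, and the 5 largest differences each way in maturation and treatment among members with at least 60 reads. Other members are named as examples of their list and were chosen after their values were seen. Motifs were read from GENCODE transcripts and the RefSeq GRCm38 genome. Catalytic motifs of the proteins were not analysed here.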

Additional observations from a re-analysis of the deposited data

How the results depend on the processing

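Ddx3x and Ddx39 stayed higher in maturation and in treated against fully grown oocytes under every alternative. Ddx19a and Ddx11 likewise stayed lower in maturation, with the losses of calls given above. Called higher in maturation were 0 members with only the 2 groups compared (0% of all genes) and 0 with no mean-variance trend (1.24% of all genes). Called lower was 1 member (1.92 to 1.96%) with a pseudocount of 0.1 (2.76% of all genes), no filter (2.51%), quantile normalization (2.66%) or the replicate block (2.21%). At 60 reads 4 were called lower (21.1%, with 18.8% of all genes), and by voom 8 (15.7%, with 10.8%). No member was called lower on median centring (2.01% of all genes), with only the 2 groups (0%) or with no trend (0.925%). The members' median change in maturation was -0.56 without a filter, 0.067 on centring, -0.022 on quantile normalization, -0.73 by voom and -0.90 to -0.37 leaving out each library. At 60 reads both libraries were lower in maturation for 10 of 19 members (52.6%, with 34.4% of 2706 genes), and with treatment 8 were higher (42.1%, with 25%) and 2 lower (10.5%, with 21.1%). For treated against fully grown oocytes at 60 reads, 4 were called higher (21.1%, with 27.1%) and 5 lower (26.3%, with 15.3%). Called higher were 0 with only the 2 groups (0.205% of all genes) and 0 with no trend (0.37%). By voom 9 were called lower (17.6%, with 13.6%). Leaving out each library gave 0 to 3 higher and 0 to 1 lower. The share of all genes called also moved between these fits of the comparison. Its median was -0.21 at 60 reads, -0.27 on centring, -0.16 on quantile normalization, -0.95 by voom and -0.79 to -0.40 leaving out each library, and both libraries were higher for 7 (36.8%, with 42.4%) and lower for 8 (42.1%, with 38.4%) at 60 reads, and lower for 12 on centring (23.5%, with 22.7%) and 10 on quantile normalization (19.6%, with 21.2%). Fewer genes or samples were tested at 60 reads, with only the 2 groups and leaving out libraries, and the cause of the other shifts was not tested.

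Signs in maturation turned on median centring for Ddx4 (0.25), Ddx6 (0.079), Ddx21 (0.25) and Dhx36 (0.084), on quantile normalization for Ddx6 (0.19) and Ddx21 (0.34), and with a pseudocount of 0.1 for Ddx21 (1.16). Leaving out each library, changes in maturation ranged from -0.68 to 1.33 for Ddx17, -2.55 to 2.18 for Ddx21, -0.55 to 0.17 for Ddx4, -1.03 to 0.31 for Ddx6 and -0.37 to 1.77 for Dhx8. With treatment they ranged from -0.58 to 2.37 for Ddx1, -0.0095 to 0.39 for Ddx11, -1.98 to 0.029 for Ddx17, -2.18 to 1.27 for Ddx21, -0.32 to 0.18 for Ddx39, -0.69 to 0.77 for Ddx41, -0.59 to 0.095 for Ddx5, -0.69 to 0.54 for Dhx15, -0.23 to 0.69 for Dhx37 and -0.42 to 0.69 for Dhx8. With runs of at least 2 G the motif shares of members were 67.3% in the 5′-UTR, 98.1% in coding sequence, 55.8% in the 3′-UTR and 100% anywhere.

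Deviations of same-numbered libraries from their group means correlated at 0.0342, 0.0176 and 0.0189 over 2706 genes, so the replicate numbers were not taken as pairs. With the replicate block 2 members were called higher (3.92%, with 2.99% of all genes) and 1 lower (1.96%, with 2.21%) in maturation. Ddx11 had a limma adjusted p of 0.0910 there. With treatment 0 members were called in that fit, beside 0% of all genes. Depth limits most members: 32 of the 51 tested had fewer than 60 reads.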
